A study of Mus musculus with 8 samples.

Results

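Lim1 (gene symbol Lhx1) encodes a LIM homeodomain transcription factor that the renal vesicle, the first epithelial stage of the nephron, needs in order to go on. The comparison described here set whole kidneys of E14.5 control embryos against those of E14.5 Lim1 mutant embryos, 4 of the 8 arrays of the series, and asked which genes early nephron formation brings to the kidney. Control embryos were Lim1flox/+; Rarb2-Cre tg/+ and mutants were Lim1flox/lacZ; Rarb2-Cre tg/+, both of mixed sex on a mixed 129, C57BL/6 and SJL/J background. The E14.5 pools held kidneys of 23 control and 17 mutant embryos, and the E18.5 pools, of the same genotypes, held 14 and 9. All embryos thus carried a floxed allele and the Cre transgene, which acts in the metanephric mesenchyme and not in the ureteric bud, while the lacZ null allele was in every cell of the mutants only. Each pool gave 1 RNA that was made into target in duplicate, so the 2 arrays of a pool show technical spread and no test between genotypes was possible. Each ratio is given with its range over the 4 pairings of a control with a mutant array in parentheses.

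A nephron starts when mesenchyme cells around the branching ureteric bud condense and turn into a renal vesicle. The vesicle elongates through comma and S shapes, which are patterned along their length by Notch signals and transcription factors, and gives rise to podocytes, proximal tubule, loop of Henle and distal tubule. The ureteric bud forms the collecting duct, and the mesenchyme also holds nephron progenitors and stroma. In RNA of whole kidneys, fewer cells of a type and less RNA per cell cannot be told apart.

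The signal is a linear, model-based brightness of a probe set, a group of oligonucleotides that reads 1 transcript. A probe set was called at least 2-fold when the ratio of the mean signals reached 2 and was larger than the fold by which either pair of duplicates differed, and 1.4- to 2-fold when both arrays of the higher condition lay above both of the other. In both classes both arrays of the higher condition had to reach their own 40th percentile, a signal of 182 to 191. Of 28285 genes and unnamed probe sets, 29 (0.103%) were at least 2-fold higher in control, 22 of them named genes (0.121% of 18193), and 1 (0.00354%, and 0.0055% of named genes) was at least 2-fold higher in mutant. Between 1.4- and 2-fold, 154 (0.544%) were higher in control and 234 (0.827%) in mutant, 114 (0.627%) and 207 (1.14%) of them named genes. Of the calls of both classes together 43.8% were higher in control, a share of 56.2% after quantile normalization, of 33.2% after scaling the arrays to 1 median and of 58.8% with no minimum signal. The share was 61.8% without control array 1, 22.7% without control array 2, 61.2% without mutant array 1 and 31.3% without mutant array 2. These classes are defined by the ratios themselves, so the counts and ratios below describe the members. Between the duplicates of 1 pool, where 1 array is set against 1 and not a mean against a mean, 1016 genes were at least 1.4-fold higher on control array 2 than on array 1 and 134 the other way, and 845 were higher on mutant array 1 than on array 2 and 48 the other way. At 2-fold, 34 genes were higher on control array 2 and 43 on mutant array 1.

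**Figure D1:**
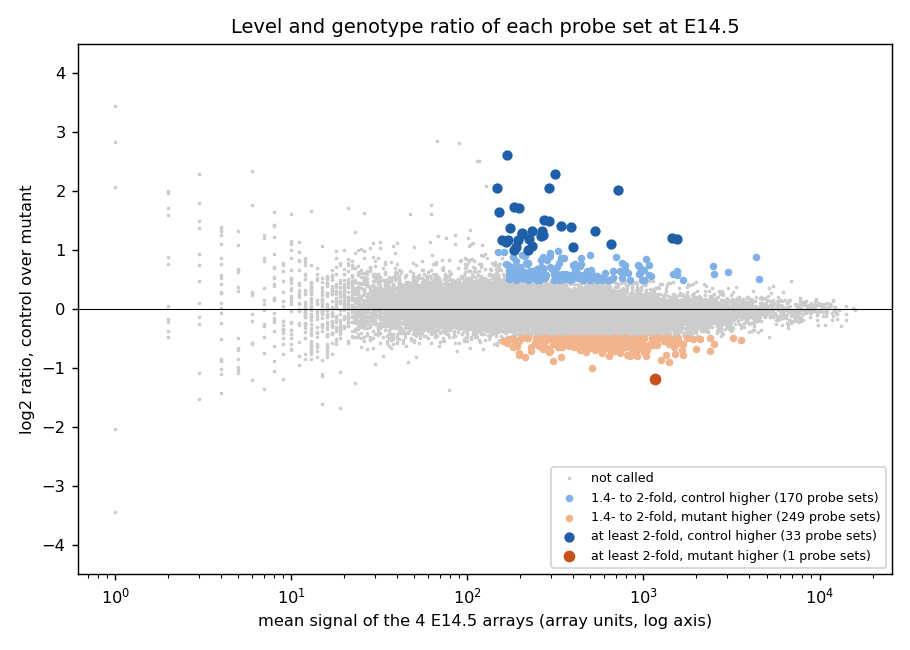
Mean signal of the 4 E14.5 arrays (x axis, array units, log scale, values under 1 drawn at 1) against the log2 ratio of control over mutant (y axis) for every probe set, with the called classes coloured. The 33 probe sets at least 2-fold higher in control reach a ratio of 6.09, while 1 called probe set lies past 2-fold on the mutant side.

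The targeted gene did not separate the genotypes. Probe set 1421951_at of Lhx1 read 388 and 365 on the control arrays and 323 and 290 on the mutant arrays, a ratio of 1.23 (1.13 to 1.34). Probe set 1450428_at of Lhx1 read 449 and 517 in control and 563 and 554 in mutant, a ratio of 0.865 (0.798 to 0.934). The probe sets pointed in opposite directions. Where their probes lie against the deleted part of the gene is not given in the sources used here, and the ureteric bud, which also expresses Lhx1, is not a target of the Cre, so these values do not check the labels.

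The proximal tubule is the segment that reabsorbs most of the filtrate through a brush border of microvilli. Its 3 lists, of 91 measured genes, gave 5 of the 22 named genes at least 2-fold higher in control. Some smaller lists gave a larger share, such as 2 of 9 for the sodium pump and 3 of 37 for the Notch pathway. Of all named genes 0.121% were in this class. Among called probe sets the highest ratio of a named gene was that of the sulfotransferase Sult1d1, which read 247 and 329 in control and 42 and 52 in mutant, a ratio of 6.09 (4.71 to 7.83). Its dim probe set 1418138_at read 87 and 148 against 15 and 18, a ratio of 7.22 (4.93 to 9.92), and was not called. Fut9, which makes the Lewis x sugar of the brush border, read 200 and 261 against 70 and 78, a ratio of 3.13 (2.58 to 3.74). Pdzk1, a scaffold that anchors transporters under the brush border, read 363 and 397 against 144 and 160, a ratio of 2.51 (2.28 to 2.76). In each of these genes the lower control array lay above the higher mutant array by more than 2-fold. The peptidase Dpp4 read 295 and 461 against 166 and 152, a ratio of 2.38 (1.78 to 3.04), on probe set 1459973_x_at, whose suffix marks probes that can match other transcripts. Its probe set 1416697_at read 403 and 467 against 218 and 220, at 1.98 (1.83 to 2.14) just under the 2-fold line. Keg1, a kidney-expressed relative of the glycine acyltransferases, read 216 and 218 against 89 and 103, a ratio of 2.26 (2.09 to 2.45).

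**Figure D2:**
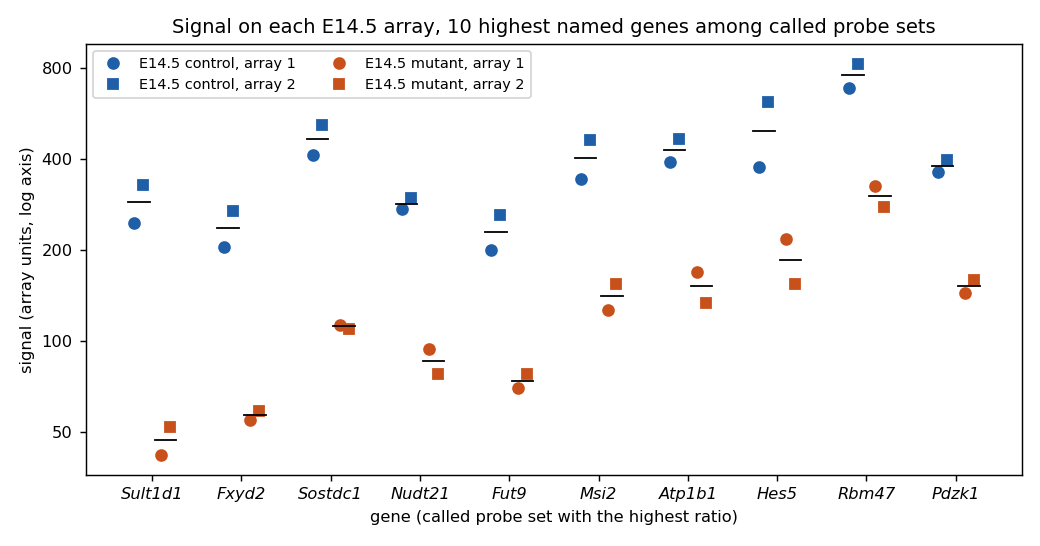
Signal on each of the 4 E14.5 arrays (y axis, array units, log scale) for the 10 named genes with the highest ratio of control over mutant among called probe sets (x axis), each by its called probe set with the highest ratio, with a bar at the mean of the duplicates. In each gene shown both control arrays lie above both mutant arrays, as the 2-fold criteria require. The genes run from Sult1d1 at 247 and 329 against 42 and 52 to Pdzk1 at 363 and 397 against 144 and 160.

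A further 4 brush border genes lay between 1.4- and 2-fold. Cldn2, the claudin that makes the tight junctions of the proximal tubule leaky to sodium, read 226 and 202 in control and 105 and 114 in mutant, a ratio of 1.96 (1.77 to 2.16). The metalloprotease Mep1a read 292 and 266 against 147 and 175, a ratio of 1.73 (1.52 to 1.99). Enpep, an aminopeptidase of the brush border, read 1034 and 1270 against 766 and 740, a ratio of 1.53 (1.35 to 1.72). Cdh6, a cadherin of the early proximal segment, read 427 and 570 against 322 and 319, a ratio of 1.56 (1.33 to 1.79). Membership of this class itself requires the groups to be apart. The ratio of Cldn2 was the highest of all named genes in it.

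Taken as a list, 3 of 21 measured genes of the brush border and endocytosis list were at least 2-fold and 4 were 1.4- to 2-fold higher in control, none was called in mutant, and the median log2 ratio was 0.64 (0.43 to 0.75), against -0.01 over all named genes. Each gene was read here by its brightest probe set, and the median of a list, which uses the ratios of means, can fall outside the range over pairings. In all 4 pairings 13 of the 21 were higher in control, against 15.8% of all named genes. Of 38 genes of proximal tubule metabolism, 2 (Sult1d1 and Keg1) were called and the median was 0.09, and none of 32 transporters was called, with a median of 0.10 and 15 higher in control in all 4 pairings. The brush border list thus stood above the transporter and metabolism lists by its median over all measured members. The lists also differed in how many members were bright enough to reach the minimum signal. These were 15 of 21 brush border genes, 12 of 32 transporters and 18 of 38 metabolism genes. The part of dim members in the lower medians was not tested, so the medians do not rank the lists by function.

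Much of the proximal tubule difference lay under the minimum signal. There, 56 probe sets were at least 2-fold higher in control with the groups apart but were not called, against 17 in mutant, and 10 genes of the lists appeared only among them. Hao2, a peroxisomal hydroxy acid oxidase, read 137 and 175 in control and 11 and 34 in mutant, a ratio of 7.05 (4.08 to 16.3). Cltrn (collectrin), a partner of brush border amino acid transporters, read 165 and 251 against 47 and 50, a ratio of 4.26 (3.27 to 5.31). Slc16a12, a creatine transporter, read 80 and 112 against 31 and 26, a ratio of 3.38 (2.57 to 4.36). These are the signals of dim probe sets, at which the array's background weighs on the ratio. The endocytic receptor Lrp2 (megalin) read 115 and 125 against 53 and 48, a ratio of 2.37 (2.16 to 2.61), and its partner Amn (amnionless) read 145 and 137 against 57 and 66, a ratio of 2.30 (2.09 to 2.56). The phosphate transporter Slc34a1 read 142 and 144 against 61 and 71, a ratio of 2.16 (1.99 to 2.35), and the cation exporter Slc47a1 142 and 154 against 61 and 55, a ratio of 2.55 (2.32 to 2.80). The others were Gsta2 at 2.35 (1.72 to 3.07), Acsm2 at 2.29 (1.84 to 2.87) on a probe set that was not its brightest, and Slc26a1, whose probe set read under 10 on all 4 arrays.

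The sodium pump, which drives transport along the whole tubule, was higher in control through its regulatory and beta subunits. Fxyd2, the gamma subunit, read 205 and 270 in control and 55 and 59 in mutant, a ratio of 4.17 (3.50 to 4.90), on probe set 1456601_x_at. Of its other probe sets, which were not called, the brightest, 1419378_a_at, read 207 and 186 against 42 and 27, a ratio of 5.71 (4.47 to 7.61), 1419379_x_at gave 1.80 (1.5 to 2.17) and 1449883_at 0.975 (0.915 to 1.04). Probe set 1423890_x_at of Atp1b1, the beta1 subunit, read 2067 and 2231 against 941 and 944, a ratio of 2.28 (2.19 to 2.37), and 2 further probe sets gave 2.32 and 2.83, while its other 2 probe sets were not called. The duplicates of Atp1b1 differed far less than its genotypes. The other 7 of 9 measured genes of the sodium pump list were not called, and the median of the list was 0.02 on the log2 scale.

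Of the loop of Henle and distal tubule, 2 of 23 measured genes were at least 2-fold higher in control, against 0.121% of all named genes. The median log2 ratio was 0.11 (0.07 to 0.14). Slc12a1, the sodium, potassium and chloride cotransporter of the thick ascending limb, read 263 and 312 in control and 115 and 121 in mutant, a ratio of 2.43 (2.18 to 2.70). Sostdc1, a secreted antagonist of BMP and Wnt signals found in the distal tubule, read 413 and 519 against 113 and 110 on probe set 1449340_at, a ratio of 4.16 (3.64 to 4.70). Its probe set 1460250_at read 244 and 260 against 95 and 100, a ratio of 2.59 (2.44 to 2.74). Both genes were apart on all pairings, as the 2-fold criteria require. Umod, the marker of the mature thick limb, was dim in both genotypes at 67 and 70 against 52 and 49.

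Transcription factors that pattern the nephron were higher in control as well. Of 25 measured genes 2 were at least 2-fold and 3 were 1.4- to 2-fold higher, against 0.121% and 0.627% of all named genes. Hnf4a, a nuclear receptor of proximal tubule cells, read 528 and 545 in control and 249 and 264 in mutant on probe set 1427001_s_at, a ratio of 2.09 (2.00 to 2.19). Its dim probe set 1427000_at read 148 and 236 against 33 and 34, a ratio of 5.70 (4.31 to 7.14). The brightest, 1421983_s_at, read 662 and 713 against 748 and 440, where the groups overlapped, and 1450447_at gave 1.07 (0.987 to 1.16). The probe sets of Hnf4a thus did not report 1 common ratio. Sim1, a bHLH-PAS factor, read 226 and 313 against 132 and 106, a ratio of 2.27 (1.72 to 2.96), while its brightest probe set differed by 0.16 on the log2 scale.

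Osr2, a zinc finger factor, read 260 and 236 in control and 148 and 155 in mutant, a ratio of 1.63 (1.52 to 1.75). Esrrg, an orphan nuclear receptor of metabolism, read 260 and 313 against 178 and 190, a ratio of 1.56 (1.37 to 1.76). Emx2, a homeodomain factor needed for the urogenital system, read 691 and 1174 against 521 and 678, a ratio of 1.56 (1.02 to 2.26), and its control duplicates were farther apart than its genotypes. Irx2 read 191 and 194 against 133 and 121, a ratio of 1.52 (1.44 to 1.6), but control array 1 lay just under its percentile and the gene was not called. Irx3 read 484 and 518 against 383 and 399 (1.28, 1.21 to 1.35). The POU factor Pou3f3 read 647 and 748 against 536 and 502 (1.34, 1.21 to 1.49). In none of these 3 Iroquois and POU genes, a group known to mark the middle of the S-shaped body, did the genotypes overlap. Others of the same families were near level on the log2 scale, Irx1 at 0.08, Irx5 at -0.01 and Pou3f2 at 0.06. The median log2 ratio of the list was 0.19 (0.13 to 0.29). In all 4 pairings 12 of the 25 were higher in control and none in mutant, against 15.8% and 21.8% of all named genes.

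Notch signalling, in which a ligand on 1 cell releases an intracellular fragment of the receptor that acts with RBPJ on Hes and Hey genes, is required for the proximal fate. Of 37 measured genes of the pathway 3 were at least 2-fold higher in control and the others were not called. The ligand Jag1 read 194 and 316 in control and 125 and 122 in mutant on probe set 1421106_at, a ratio of 2.06 (1.55 to 2.59), and 982 and 1389 against 871 and 610 on the brighter 1434070_at, a ratio of 1.6 (1.13 to 2.28). The target Hes5 read 377 and 617 against 218 and 155, a ratio of 2.67 (1.73 to 3.99), on probe set 1456010_x_at, which is also of the kind that can match other transcripts. Hes5 on 1423146_at read 242 and 235 against 190 and 214, a ratio of 1.18 (1.10 to 1.28). The control duplicates of Jag1 and of Hes5 on the called probe sets were more than 1.4-fold apart, with control array 2 the higher.

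Msi2, an RNA-binding protein whose relative Msi1 acts on Numb messenger RNA, read 345 and 463 in control and 127 and 155 in mutant on probe set 1435521_at, a ratio of 2.87 (2.23 to 3.65). Probe set 1435520_at gave 1.71 (1.57 to 1.86) and 1421230_a_at 1.30 (1.27 to 1.33), while the brightest of the 8 probe sets of Msi2, 1436818_a_at, gave 1.11 (0.950 to 1.29). The ratio of Msi2 thus depended on the probe set. The other members were not called. The ligand Dll1 read 531 and 553 against 486 and 453 (1.15, 1.09 to 1.22) and the glycosyltransferase Lfng 268 and 291 against 244 and 221 (1.20, 1.10 to 1.32). Notch2, the receptor that acts in the proximal nephron, read 1153 and 1416 against 1207 and 1027 (1.15, 0.955 to 1.38), with the groups overlapping, as did the target Hes1 at 562 and 843 against 753 and 686. Notch3 (-0.33), Maml1 (-0.33) and Hes6 (-0.30) had log2 ratios on the mutant side. In all 4 pairings 5 of the 37 were higher in control and 13 in mutant, against 15.8% and 21.8% of all named genes, and the median log2 ratio of the pathway was -0.05 (-0.15 to 0.01).

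The promoters of 3 of these genes are shown because they hold letters of the sites of HNF1, a homeodomain factor of tubule cells, or of RBPJ. They are the 250 bases before the annotated start in RefSeq, build GRCm38.p6, written on the strand of the gene, with capitals marking GTTAAT (part of the HNF1 site) in Sult1d1 and Hnf4a and GTGGGAA (the RBPJ site of Notch signalling) in Hes5, or the reverse complement of these letters.
Sult1d1, chr5:87569007-87569256, minus strand: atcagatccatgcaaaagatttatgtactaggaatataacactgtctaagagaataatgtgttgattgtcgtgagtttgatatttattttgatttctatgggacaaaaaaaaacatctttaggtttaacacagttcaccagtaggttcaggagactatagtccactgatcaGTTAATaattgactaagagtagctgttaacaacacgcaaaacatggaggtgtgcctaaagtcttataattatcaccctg
Hnf4a, the second annotated start, chr2:163546905-163547154, plus strand: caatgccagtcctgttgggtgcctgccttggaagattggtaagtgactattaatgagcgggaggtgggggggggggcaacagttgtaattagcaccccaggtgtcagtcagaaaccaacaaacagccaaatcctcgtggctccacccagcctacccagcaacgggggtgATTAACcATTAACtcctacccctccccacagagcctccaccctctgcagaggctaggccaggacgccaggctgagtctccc
Hes5, chr4:154960673-154960922, plus strand: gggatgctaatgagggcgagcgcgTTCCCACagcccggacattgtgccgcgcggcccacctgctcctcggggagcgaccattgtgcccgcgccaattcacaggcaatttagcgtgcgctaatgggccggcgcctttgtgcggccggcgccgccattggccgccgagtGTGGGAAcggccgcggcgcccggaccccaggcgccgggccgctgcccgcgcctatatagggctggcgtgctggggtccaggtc
In Hes5 the RBPJ letters lie 226 and 83 bases before the start, in Hnf4a the HNF1 letters lie 81 and 74 bases before it, and in Sult1d1 79 bases before it. Of the 22 named genes at least 2-fold higher in control, 19 had promoters in the table, 27 in all, of 250 bases before to 50 after the start. GTTAAT on either strand was in 3 of the 27 (11.1%) and in 7.10% of 32851 promoters, and GTGGGAA in 3 (11.1%, Dpp4, Hes5 and Slc12a1) against 6.38%. AAAGTCC, the core of the HNF4 site, was in 1 (3.70%, Pdzk1) against 4.21%, the homeodomain letters TAATTA in 3 (11.1%) against 5.29%, and TATAAA in 4 (14.8%) against 13.6%. GTTAAT and TAATTA share the letters TAAT, so that 1 stretch can match both. A match is a description of the letters and not a bound site.

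Of the 22 named genes, 8 were in no list. Rbm47, an RNA-binding protein of endoderm and kidney epithelium, read 690 and 830 in control and 327 and 278 in mutant, a ratio of 2.51 (2.11 to 2.98), and Tmem52b, a transmembrane protein, 316 and 346 against 123 and 142, a ratio of 2.5 (2.23 to 2.82). Gcnt1, which branches O-linked sugars, had a ratio of 2.45 (1.73 to 3.39), and Pcp4, a small modulator of calmodulin, one of 2.35 (1.88 to 2.87). These 4 genes were called higher in control at E18.5 too. The remaining 4 were not called at E18.5 in either direction, and each had a probe set near or below a ratio of 1.

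Nudt21, a subunit of the complex that chooses poly(A) sites, read 274 and 297 in control and 94 and 78 in mutant on probe set 1437213_at, a ratio of 3.33 (2.92 to 3.82), and 555 and 559 against 206 and 219 on 1455966_s_at, a ratio of 2.62 (2.53 to 2.71). Its brightest probe set, 1417681_at, read 2547 and 2884 against 2953 and 2998, a ratio of 0.913 (0.849 to 0.977). The probe sets of Nudt21 thus pointed in opposite directions with little spread between duplicates. Ccar1, a coactivator linked to cell cycle and apoptosis, had 2.20 (2.11 to 2.30) on 1453319_at and 0.963 (0.783 to 1.19) on its brightest. The RNA-binding protein Taf15 had 2.28 (1.98 to 2.66) on 1438130_at and 1.15 (1.05 to 1.28) on its other, dim probe set. Ehd2, a protein of caveolae, had 2.02 (1.48 to 2.69) on 1427729_at and 1.01 (0.937 to 1.09) on its brightest. Pum2, an RNA-binding repressor of translation, was called both ways, the only such gene. Its probe set 1418015_at read 678 and 739 against 1339 and 1862 and was 2.26-fold (1.81 to 2.75) higher in mutant, its probe set 1441448_at was 1.57-fold (1.47 to 1.69) higher in control, and its brightest gave 0.992 (0.945 to 1.04). Pum2 was the 1 gene at least 2-fold higher in mutant.

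**Figure D3:**
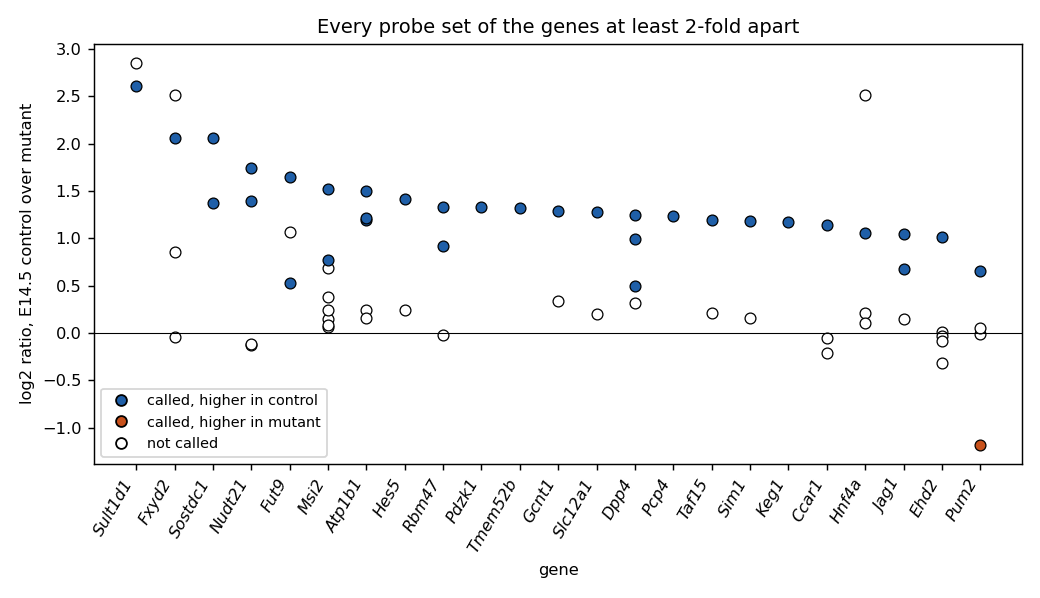
Log2 ratio of control over mutant at E14.5 (y axis) of every probe set of the 23 genes called at least 2-fold (x axis), filled where the probe set was called and open where it was not. Sult1d1 and Sostdc1 have every probe set above 1, Nudt21 and Ccar1 have probe sets on both sides of 0, and Pum2 is called on both sides.

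The 7 unnamed probe sets at least 2-fold higher in control, which the table used here does not pair with 1 gene, included the 1417554_at signal of 495 and 550 against 100 and 111, a ratio of 4.94 (4.45 to 5.48), and 1417185_at at 1154 and 1141 against 289 and 278, a ratio of 4.05 (3.95 to 4.16). Both were among the 5 highest ratios of the called genes and unnamed probe sets. At E18.5 they were also at least 2-fold higher in control.

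Among the 114 named genes 1.4- to 2-fold higher in control, those that follow Cldn2 in order of ratio included further epithelial genes. Clrn3, a clarin, read 197 and 201 in control and 97 and 107 in mutant, a ratio of 1.95 (1.85 to 2.07). Calml4, a calmodulin-like light chain of brush border links, read 375 and 401 against 191 and 211, a ratio of 1.93 (1.78 to 2.10). Clu (clusterin), a secreted chaperone, read 833 and 972 against 475 and 504, a ratio of 1.85 (1.65 to 2.05), with 4 probe sets called. Retreg1, a receptor for the turnover of endoplasmic reticulum, read 310 and 388 against 178 and 200, a ratio of 1.84 (1.55 to 2.18), and Arhgap24, an inhibitor of Rac, 894 and 1026 against 571 and 538, a ratio of 1.73 (1.56 to 1.91). Each of these was also higher in control at E18.5, by 9.36-fold, 6.80-fold, 1.45-fold, 4.56-fold and 2.58-fold in the same order.

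Of 27 measured genes of epithelial junctions and polarity, 5 were 1.4- to 2-fold higher in control and 1, Cdh2, in mutant. The shares of all named genes in these classes were 0.627% and 1.14%. Mal, a protein of apical sorting, read 252 and 301 in control and 168 and 156 in mutant, a ratio of 1.71 (1.51 to 1.92). Cdh1 (E-cadherin) read 920 and 1407 against 775 and 614, a ratio of 1.68 (1.19 to 2.29), with control array 2 well above array 1. Crb3, an apical polarity protein, read 240 and 274 against 193 and 174 on 1434851_s_at, a ratio of 1.4 (1.24 to 1.58), while its brightest probe set gave 1.03 (0.959 to 1.11). Cdh2 (N-cadherin) read 558 and 551 against 869 and 701, higher in mutant by 1.42-fold (1.26 to 1.58). Beside Cdh6, the remaining call was Cdh3 (P-cadherin), which read 247 and 338 against 205 and 208, a ratio of 1.42 (1.19 to 1.65). The brightest probe set of Cdh3 differed by 0.11 on the log2 scale. The median of the list was 0.04 on the log2 scale.

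Of the 41 measured genes of the Wnt pathway, Sostdc1 was at least 2-fold and Fzd4, Gsk3b and Lgr4 were 1.4- to 2-fold higher in control, against Wnt4 and Sfrp1 in mutant. The shares of all named genes in these 3 classes were 0.121%, 0.627% and 1.14%. The receptor Fzd4 read 798 and 832 in control and 553 and 487 in mutant on 1419301_at, a ratio of 1.57 (1.44 to 1.71), and 1.16 (1.11 to 1.20) on its brightest probe set. Lgr4, the receptor for R-spondins, read 1723 and 2092 against 1404 and 1020, a ratio of 1.57 (1.23 to 2.05). The kinase Gsk3b read 1420 and 1257 against 749 and 846 on 1437001_at, a ratio of 1.68 (1.49 to 1.90), but 1.28 (1.00 to 1.71) on its brightest probe set. Of 18 Eph receptors and ephrins none was called, and Epha4, a receptor of the early nephron, read 535 and 487 against 435 and 452 (1.15, 1.08 to 1.23).

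Genes 1.4- to 2-fold higher in mutant included markers of progenitors and stroma. Of 21 measured nephron progenitor genes 3 were 1.4- to 2-fold higher in mutant, against 1.14% of all named genes, and none was called in control. The median log2 ratio was -0.23 (-0.42 to -0.08). In all 4 pairings 13 were higher in mutant, against 21.8% of all named genes. Crym (mu-crystallin) read 646 and 661 in control and 1000 and 1116 in mutant, 1.62-fold (1.51 to 1.73) higher. The homeodomain factor Uncx read 536 and 543 against 826 and 850, 1.55-fold (1.52 to 1.58) higher, and Hoxd11, which the metanephric mesenchyme needs, 447 and 461 against 670 and 652, 1.46-fold (1.41 to 1.5) higher. The duplicates of these genes were close to each other beside the distance between genotypes. Six2, which keeps progenitors from differentiating, read 1716 and 1704 against 1988 and 2147 and was not called, at a ratio of control over mutant of 0.827 (0.793 to 0.863).

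Of 23 measured stroma genes 4 were 1.4- to 2-fold higher in mutant, against 1.14% of all named genes, and none was called in control. In all 4 pairings 18 were higher in mutant and none in control, against 21.8% and 15.8% of all named genes. The median log2 ratio was -0.31 (-0.34 to -0.22), the lowest of the 28 lists. Dlk1, a Notch-like protein of fetal mesenchyme, read 516 and 410 in control and 780 and 832 in mutant, 1.74-fold (1.51 to 2.03) higher. The collagen Col1a1 read 2056 and 1905 against 2636 and 2954, 1.41-fold (1.28 to 1.55) higher, and the guidance factor Ntn1 475 and 469 against 687 and 668, 1.44-fold (1.41 to 1.47) higher. Sfrp1, a secreted Wnt antagonist, read 197 and 200 against 332 and 249 on 1460187_at, 1.47-fold (1.25 to 1.69) higher, while its brightest probe set differed by -0.16 on the log2 scale. The 4 called genes have their groups apart by the definition of the class. The cortical stroma factor Foxd1 read 1463 and 1517 against 1636 and 1542, a ratio of 0.938 (0.894 to 0.984).

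**Figure D4:**
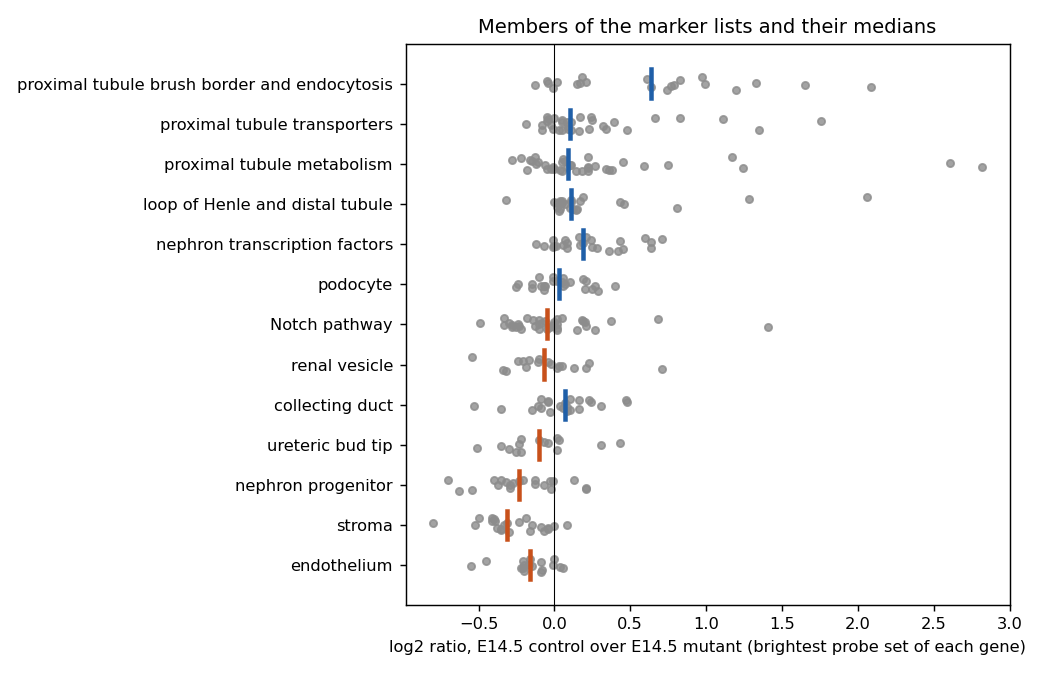
Log2 ratio of control over mutant at E14.5 (x axis) of the measured genes of 13 marker lists (rows), with a point for the brightest probe set of each gene, spread vertically for legibility, with a bar at the median of the list. The brush border list has the highest median of those shown (0.64), and the stroma list the lowest (-0.31).

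The list of the renal vesicle, the stage that nephrons without Lim1 are known not to pass, was split. Papss2, which makes the sulfate donor, read 390 and 406 in control and 240 and 246 in mutant, a ratio of 1.64 (1.59 to 1.69), and Ccnd1 (cyclin D1) read 3056 and 3120 against 1907 and 1804 on 1417419_at, a ratio of 1.66 (1.6 to 1.73), while the brightest probe set of Ccnd1 differed by 0.21 on the log2 scale. Wnt4, the signal that starts epithelial conversion, read 556 and 594 against 919 and 930 on 1450782_at, 1.61-fold (1.55 to 1.67) higher in mutant, though its brightest probe set differed by -0.04 on the log2 scale. Tmem100 read 208 and 228 against 312 and 321, 1.45-fold (1.37 to 1.54) higher in mutant. The median of the 18 measured genes was -0.07 (-0.17 to 0.00). None of 24 podocyte genes was called in either direction, with a median of 0.03, and Nphs1 (nephrin) read 520 and 530 against 650 and 454, with the groups overlapping. Wt1 read 1536 and 1649 against 1312 and 1441, a ratio of 1.16 (1.07 to 1.26).

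Of the derivatives of the ureteric bud, 1 of 23 collecting duct genes and 1 of 15 bud tip genes were called, both in mutant. The share of all named genes 1.4- to 2-fold higher in mutant was 1.14%. The keratin Krt8 read 796 and 741 in control and 1076 and 1150 in mutant, 1.45-fold (1.35 to 1.55) higher, and Etv5, a target of GDNF and RET, 410 and 408 against 591 and 576, 1.43-fold (1.4 to 1.45) higher. The receptor Ret itself read 485 and 546 against 591 and 613, a ratio of 0.857 (0.792 to 0.923), and was not called. In endothelium the angiopoietin coreceptor Tie1 was called of 17 genes, at 165 and 154 against 231 and 236, 1.47-fold (1.4 to 1.53) higher in mutant, and the median was -0.16 (-0.18 to -0.14).

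The highest ratios on the mutant side belonged to no single list. Creg1, a secreted lysosomal glycoprotein, read 356 and 320 in control and 646 and 706 in mutant, 1.998-fold higher and just outside the 2-fold class, and its second probe set gave 1.85-fold (1.75 to 1.94). The chromatin protein Rbbp4 read 772 and 1178 against 1873 and 1774 (1.87-fold, 1.51 to 2.43), and Ldb2, a partner of LIM homeodomain proteins, 118 and 190 against 304 and 239 (1.77-fold, 1.26 to 2.58). The groups of these genes are apart by the definition of the class, but the control duplicates of Rbbp4 and Ldb2 differed by over 1.4-fold. The scaffold gene Dlgap4 was 1.76-fold (1.53 to 2.01), the mitochondrial carrier Mtch1 1.72-fold (1.57 to 1.88), the phosphofructokinase Pfkl 1.72-fold (1.49 to 2.03), Dcakd 1.72-fold (1.58 to 1.89) and Ptov1 1.72-fold (1.41 to 2.13) higher in mutant. The predicted gene Gm3515 read 143 and 145 against 251 and 243, 1.72-fold (1.68 to 1.76) higher, and was called at least 2-fold higher in mutant at E18.5. The others of the 20 highest were Erdr1, C1qtnf12, Evl, Cited2, Samd14, Igfbp2, Tpm2, Aldoa and Meg3, between 1.66-fold and 1.71-fold.

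Xist, the RNA of the inactive X chromosome, was also among them. It read 842 and 941 in control and 1665 and 1592 in mutant on 1427262_at, 1.83-fold (1.69 to 1.98) higher, and 1580 and 2029 against 3103 and 2809 on 1436936_s_at. The Y-linked gene Uty was 1.51-fold (1.15 to 1.88) higher in control, and Kdm5d, also Y-linked, read 174 and 196 against 137 and 136 (1.36, 1.28 to 1.44). Both pools were of mixed sex, and the proportion of each sex in them is not given. The part of this difference in the values of other genes was not tested.

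No gene of the adrenal, gonad, liver and gut, muscle and neuron, macrophage or p53 lists was called in either direction, with medians between -0.08 and 0.09 on the log2 scale and summed adrenal signals of 3314 and 3404 in control and 3327 and 3221 in mutant. In all 4 pairings 5 of 10 gonad genes were higher in control, against 15.8% of all named genes, and 5 of 13 liver and gut genes in mutant, against 21.8%. Of these 13, 1 was Trh, which was read under the listed name Trf, so transferrin itself was not read. The erythroid list had 1 call, Hba-x in mutant, and the interferon list 1, Ifitm3 in mutant. Of 24 proliferation genes Cenpe and Cenpf were called in control, each by a probe set that was not its brightest, and the median was -0.10. Their brightest probe sets gave log2 ratios of -0.04 and -0.09. Of 19 genes of the immediate early and heat shock list Hsp90aa1 was called in control, while its brightest probe set gave 0.01. Of the 50 genes next to Lhx1 on its chromosome, 25 on each side, 1 (Taf15) was called in control and 1 (Tbx2) in mutant, with a median of 0.03.

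The E18.5 arrays, which share none with the E14.5 comparison, gave the same measure in other embryos. Of the 22 named genes at least 2-fold higher in control at E14.5, 14 (63.6%) were also at least 2-fold higher in control at E18.5, against 2.23% of all named genes, and 2 more (Pcp4 and Jag1) lay between 1.4- and 2-fold. None was called in mutant. Sult1d1 read 2770 and 2461 in E18.5 control and 146 and 186 in E18.5 mutant, a ratio of 15.8 (13.2 to 19.0), Fxyd2 21.6 (19.2 to 24.5), Slc12a1 22.5 (21.0 to 24.0) and Pdzk1 15.5 (15.1 to 15.9). All 4 are tubule genes, and their control signals at E18.5 lay far above those at E14.5. Msi2 and Nudt21 were not called at E18.5, at 0.957 (0.847 to 1.08) and 1.24 (0.712 to 3.28) on the probe sets with the highest E14.5 ratio. Hes5 kept its direction at 1.54 (1.48 to 1.6) but its control array 1 lay under the minimum signal, Taf15 and Ccar1 gave 1.08 (0.639 to 1.72) and 1.3 (1 to 1.83), and Ehd2 was on the mutant side at 0.604 (0.466 to 0.845), none of them called.

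The genes 1.4- to 2-fold higher in control were mixed at E18.5. Of 114 named genes, 18 (15.8%) were at least 2-fold higher in control, against 2.23%, and 13 (11.4%) were 1.4- to 2-fold higher in control, against 4.2%. Over their 170 probe sets the median E18.5 ratio was 0.979. Of the 207 named genes 1.4- to 2-fold higher in mutant, 39 (18.8%) were 1.4- to 2-fold higher in mutant at E18.5, against 2.16%, and 2 (Gm3515 and Aldh1a3) were at least 2-fold higher, against 0.165%, while 11 (5.31%) were 1.4- to 2-fold higher in control. Crym, Uncx, Wnt4, Dlk1, Etv5, Tmem100 and Cdh2 were among the 39. The E18.5 list medians on the log2 scale were 3.74 (3.67 to 3.75) for the brush border, -0.35 (-0.44 to -0.31) for progenitors and -0.35 (-0.45 to -0.26) for stroma.

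**Figure D5:**
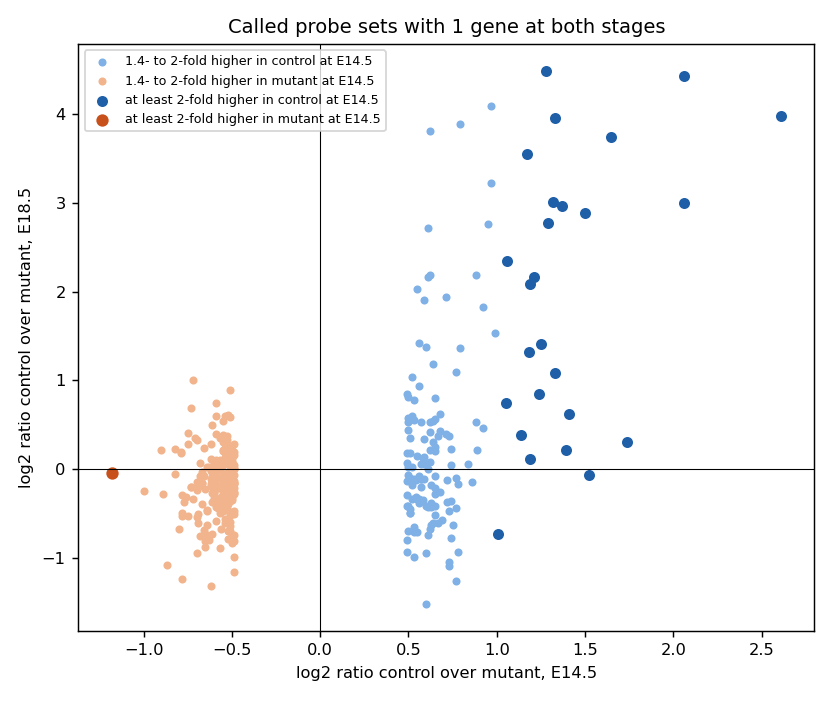
Log2 ratio of control over mutant at E14.5 (x axis) and E18.5 (y axis) of the called probe sets with 1 gene, coloured by their E14.5 class. Most probe sets at least 2-fold higher in control lie above 0 on both axes, and the 1.4- to 2-fold class of control spreads over both sides of 0 at E18.5.

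The duplicates of the E18.5 mutant pool stood apart from each other, with an SD of their log2 difference of 0.30 against 0.19 to 0.23 in the other pools. Of the 170 probe sets 1.4- to 2-fold higher in E14.5 control, 46 (27.1%) were at least 1.5-fold higher on E18.5 mutant array 1 than on array 2, as were 12.1% of those at least 2-fold, 1.61% of those 1.4- to 2-fold higher in mutant, and 2.27% of all detected probe sets. Ddx6, an RNA helicase, is an example, at 575 and 545 in E14.5 control and 330 and 324 in E14.5 mutant, a ratio of 1.71 (1.65 to 1.77), and at 419 and 87 on arrays 1 and 2 of the E18.5 mutant. The E14.5 ratio of this probe set rests on close duplicates, while its E18.5 mutant duplicates are far apart. Its brightest probe set gave 1.11 (0.951 to 1.28) at E14.5. What sets these probe sets apart was not tested.

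With E18.5 mutant array 1 left out, 14 of the 22 genes were at least 2-fold higher in E18.5 control, and with array 2 left out, 16. Of the 114 genes, 4 were 1.4- to 2-fold higher in E18.5 mutant with both arrays, 7 without array 1 and 23 without array 2. Of the 207 genes, 39 became 67 without array 1 and 28 without array 2. Of all named genes 2.16%, 4.64% and 3.37% were in that class in the same 3 readings. The number of genes on the mutant side at E18.5 thus depended on which mutant array was read.

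Many members of the 1.4- to 2-fold class in control had a second probe set that disagreed. Of the 114 named genes 55 had a detected probe set of the opposite sign, and 48 were called by their brightest probe set. Hnrnpab, an RNA-binding protein, read 5410 and 5847 in control and 3462 and 2601 in mutant on 1426114_at, a ratio of 1.86 (1.56 to 2.25), and 1.06 (1.02 to 1.10) on its brightest, 1455855_x_at. Ncl (nucleolin) had 1.68 (1.53 to 1.83) on 1442404_at and 0.926 (0.823 to 1.04) on its brightest. Of the 207 genes on the mutant side, 74 had such a probe set and 134 were called by their brightest. Control array 2 was higher than array 1 in 130 of the 170 probe sets of the control class and in 29 of the 33 at least 2-fold. It was higher in 123 of the 249 probe sets 1.4- to 2-fold higher in mutant. Mutant array 2 was higher than mutant array 1 in 67 of the 170 and 18 of the 33. The same shares over all detected probe sets are not given here. The other genes among the 20 highest of the control class were Hipk2 at 1.89 (1.61 to 2.22), Nisch at 1.82 (1.53 to 2.11), 2700099C18Rik, Zmiz1, Scmh1, Crim1 and Csnk2a1, and none of these 7 was called at E18.5.

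At the line of 1.4-fold, the lowest members were Eif4ebp2 in control and Washc2 in mutant, the latter at 1.401, with a probe set of Akap9, a gene called by others of its probe sets, and one of Meis2 just under it. At the line of 2-fold in control, Ehd2 was the lowest member at 2.018 and a probe set of Dpp4 the highest outside at 1.984.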

How the data were processed

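Kidneys of each genotype and stage were pooled after genotyping, and the RNA of a pool was labelled and hybridized in duplicate to Affymetrix mouse whole-genome arrays. The deposited values are linear signal intensities, 1 per probe set on each array, from the probe model of dChip, which the authors normalized by its invariant-set method. Array medians were 227 to 236 at E14.5. These are not the medians that the study's methods state after normalization, so the scale of the deposited signals is uncertain. Precision is limited by having 2 arrays a pool. Of 45101 probe sets, 64 array controls were left out. GEO's platform annotation paired 34958 with 1 gene, 932 with several and 9211 with none, and 34754 were given the symbol of RefSeq build GRCm38.p6 through their gene identifier.

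Ratios were taken between arithmetic means of duplicates. The size criteria followed the study's methods (ratio of 2, above the fold between duplicates, mean times ratio over 100), with the 40th percentile of an array in place of present calls. A gene was counted once if any probe set passed. With 1 pool per genotype no p-value was computed. The members and lists were chosen with earlier results of these data known. Genes named are all those at least 2-fold apart, the 20 highest of each 1.4- to 2-fold class, the members of 28 marker lists and genes of the study's text. The calling was tested on simulated arrays. Alternatives were other minimum signals, scalings, means, an offset of 50, the brightest probe set, pairings of array numbers and each array left out. Python 3.11.15, NumPy 2.4.6 and pandas 2.3.3 were used.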

Additional observations from a re-analysis of the deposited data

Results flagged for a closer look

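Of the called genes singled out here (those at least 2-fold apart, the 20 highest of each 1.4- to 2-fold class and list members), 10 differed between stages in direction: all 4 array pairings favoured 1 genotype at E14.5 and all 4 favoured the other at E18.5. The difference between stages was not tested. Over all called probe sets, 2 of the 33 at least 2-fold and 36 of the 170 1.4- to 2-fold higher in control had all 4 E18.5 pairings higher in mutant, and 40 of the 249 1.4- to 2-fold higher in mutant had all 4 higher in control. Higher in control at E14.5 and in mutant at E18.5 were Ehd2 (log2 ratio of control over mutant 1.01 at the earlier and -0.73 at the later stage) and Cenpe (0.73 and -1.04). These values of Cenpe are of probe set 1439040_at, and its brightest probe set gave -0.04 and -0.21. Higher in mutant at E14.5 and in control at E18.5 were Aldoa (-0.73 and 0.69), Sfrp1 (-0.55 and 0.55), Cited2 (-0.75 and 0.42), Igfbp2 (-0.75 and 0.28), Krt8 (-0.53 and 0.20), Pfkl (-0.79 and 0.19), Mtch1 (-0.79 and 0.17) and Ntn1 (-0.52 and 0.09). The median of the endothelium list changed sides likewise, from -0.16 at E14.5 to 0.09 at E18.5.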

How the results depend on the processing

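The 29 genes and unnamed probe sets at least 2-fold higher in control became 49 with no minimum signal (all 29 among them), 19 with an offset of 50 and 19 when both array-number pairs (a replicate block) had to pass, and 22 to 45 with 1 array left out, the 45 without control array 1. The 1 call in mutant became 2 with no minimum signal and with median scaling, 0 by the brightest probe set and under the replicate block, and 1 to 4 with 1 array left out. The 154 genes 1.4- to 2-fold higher in control became 411 with no minimum signal, 90 by the brightest probe set and 69 under the replicate block, and 142 to 472 with 1 array left out, 472 without control array 1 and 437 without mutant array 1. The 234 in mutant became 144 with the offset, 104 under the replicate block and 298 to 554 with 1 array left out, 554 without control array 2 and 447 without mutant array 2. The array numbers name target preparations, and the duplicate differences of the pools correlated at -0.28, so the crossed pairing was added after seeing the data and gave 21, 0, 88 and 106 in the same order. Without the probe sets 1.5-fold apart between the E18.5 mutant arrays, also added, the counts were 21, 1, 110 and 222. The median log2 ratio of the proximal tubule lists, 0.15, was 0.09 over detected members and 0.13 to 0.17 with 1 array left out. For 92 named genes, each held at its called probe set, 42 values moved by more than the SD over pairings. The settings that leave that probe set a ratio were scalings, means, the offset, the replicate block and arrays left out. None of the 92 changed direction under them. Called probe sets have their groups apart, so of these settings only the scalings could have reversed a direction. Read by the brightest probe set, Nudt21 (0.913) and Ccar1 (0.963) lay below a ratio of 1. The cause of the dependence on single arrays was not tested.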
